A study of Mus musculus with 32 samples.

Results

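Mice of the seizure-prone line (Withdrawal Seizure-Prone, WSP) were compared with mice of the resistant line (Withdrawal Seizure-Resistant, WSR) in the prefrontal cortex during withdrawal from ethanol. All arrays of ethanol-exposed (EtOH) mice were taken, 16 of the 32 arrays in the series, of which 8 came from WSP and 8 from WSR mice. Air-exposed mice, the other 16 arrays, were used only to ask whether a line difference was also present without ethanol. Both lines were bred from genetically heterogeneous HS/Ibg stock, for severe withdrawal in WSP and mild withdrawal in WSR, and each exists as 2 populations bred independently, WSP-1 and WSP-2 against WSR-1 and WSR-2. Adult EtOH mice of either sex were injected with ethanol at 1.5 g/kg, or at a higher dose in WSP-2 alone, breathed ethanol vapour for 72 h, and were sampled at 8 h of withdrawal. All mice, air controls included, received the alcohol dehydrogenase inhibitor pyrazole at 68.1 mg/kg. Each array was hybridised with 33P-labelled cDNA from a pool of 2 mice, so the 16 arrays stand for 32 mice, with 2 pools for each population and sex. The higher injected dose and the WSP-2 population cannot be told apart.

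Withdrawal from chronic ethanol is a state of raised neuronal excitability, commonly described as weakened inhibition through GABA receptors and strengthened excitation through glutamate receptors and calcium channels after ethanol is removed. Selective breeding changes the frequency of alleles that affect the selected trait, but alleles unrelated to it also drift apart between populations. For this reason a difference that has the same direction in both independent pairs of populations is of more interest than one carried by a single pair. Because selection acted on populations, the unit behind any line difference is the population, and with 2 against 2 population means an exact two-sided permutation test cannot give a p below 0.333. The p-values below treat the 8 arrays of a line as replicates and measure the spread between pools.

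Each array held 4696 clone spots, 1110 of them titled with a named gene and 3586 titled as ESTs or other unnamed sequences. The share of clones above the array's background was 55.4% to 77.5% on the WSP arrays (mean 63.6 ± 7.62%, SD, n = 8) and 51.1% to 88.7% on the WSR arrays (mean 67.5 ± 10.9%, n = 8), a difference within the spread between arrays (exact two-sided permutation test, p = 0.440, adjusted over 3 array measures 0.440). Background intensity spanned 9.83 to 45.0 units on WSP and 12.6 to 24.9 units on WSR arrays (exact two-sided permutation p = 0.126, adjusted 0.242). Levels are given as normalised log2 intensity, on which a probe cannot fall below about 5.64. Of the 4696 probes 1359 were above background on all 16 EtOH arrays, and 84.5% had a mean within 1 log2 unit of that floor, so differences of dim probes are compressed.

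Some arrays stood apart from the group labels. Array sets were sought over the 192 genomic DNA control spots, which hold no clone of a single transcript. Whether their signal varies with the tissue was not tested. Of the 32 arrays, 24 fell into 9 sets with a shared spot pattern, and 13 EtOH arrays were among them. Arrays of different groups within one set also shared deviations over the clone probes, with a mean correlation of 0.41, against -0.02 between sets. Of these, 3 sets joined EtOH arrays of both lines, pairing Male WSP-2 pool 1 with Female WSR-2 pool 1 (r = 0.63), Male WSP-2 pool 2 with Female WSR-2 pool 2 (r = 0.51), and Male WSP-1 pool 2 with Male WSR-1 pool 1 (r = 0.60), each over 4696 probes. In the first and second of these sets a male WSP pool is set against a female WSR pool, so line and sex cannot be told apart there, and the third alone compares arrays of one sex. No set held female EtOH arrays of both lines. What part the sets had in the line differences was not tested. Within-set differences are given in that order for each gene named from the line comparison.

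**Figure D1:**
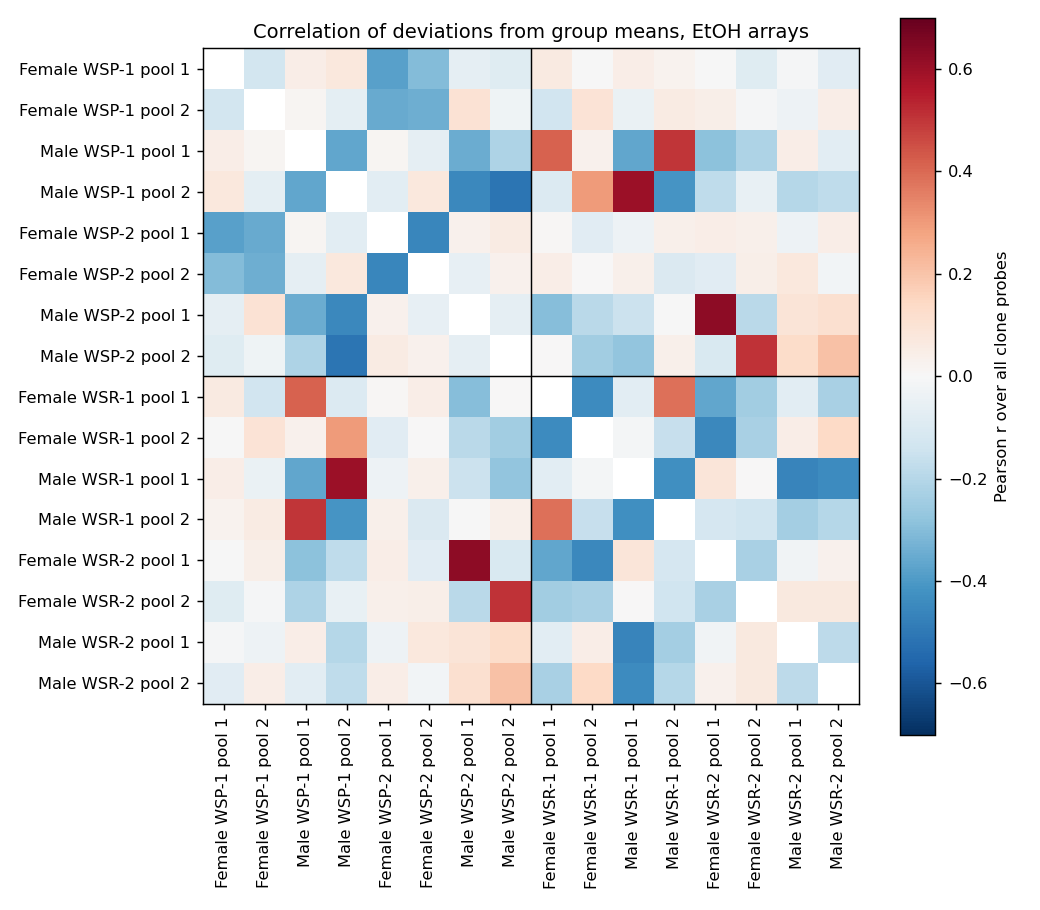
Pearson correlation, over 4696 clone probes, between the 16 EtOH arrays' deviations from their own group means, with the 8 WSP arrays above and left of the black lines and the 8 WSR arrays below and right of them. Red cells in the off-diagonal blocks are arrays of opposite lines with shared deviations, such as Male WSP-2 pool 1 and Female WSR-2 pool 1 (r = 0.63), and Male WSP-1 pool 1, in no set, also shared deviations with Male WSR-1 pool 2 (r = 0.50) and Female WSR-1 pool 1 (r = 0.41).

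No gene could be called different between WSP and WSR during withdrawal. With sex as a block, limma called 0 of 4696 probes (0%) at an adjusted p under 0.05, and the smallest adjusted p was 0.997. At an unadjusted p under 0.05 there were 157 probes (3.34%), of which 73 were higher and 84 lower in WSP, fewer than the 235 that make up 5% of the probes tested. On no probe did all 8 WSP arrays lie above or below all 8 WSR arrays (0%). With this normalisation the widest difference of a named gene was 0.49 on the log2 scale, and the 95% interval of the difference lay within 0.5 log2 units on either side of 0 for 4417 probes (94.1%) and within 1 log2 unit for 4694. The median half-width of that interval was 0.19 log2 units. Compression of dim probes near the floor narrows these intervals, which also treat the arrays as independent. They therefore do not bound the differences in transcript level. These sizes depended on the processing and on the fit. Dio2, at -0.49 here, was -0.99 in the authors' value table. Gdi2, at 0.46 here, was 1.13 with the array set as a fixed block (added after seeing the data). That fit takes the line difference only from within sets, so from the 6 arrays of the 3 sets that joined the lines, with an adjustment for sex. With the array set as a random block, the estimated correlation within sets was 0.55 and 252 probes had a p under 0.05, of which 113 were higher and 139 lower in WSP, while 0 were called (smallest adjusted p = 0.482). With the population as a random block limma called 0 as well, with 221 at a p under 0.05 (smallest adjusted p = 0.950).

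The genes named next are those with the smallest unadjusted p in each direction, 10 higher and 10 lower in WSP. None passed the adjusted threshold (limma adjusted p = 0.997 for all 20), and they were picked by this same contrast, so their values describe what the arrays recorded. For each of the 20, both WSP population means lay on one side of both WSR population means, which was true of 1354 of all 4696 probes (28.8%). All 20 also had the same sign in females and in males, which their choice by the pooled contrast favours. The same held for 152 of the 157 probes with an unadjusted p under 0.05 (96.8%), against 42.4% of all probes. Within the 3 array sets that joined the lines, 4 of the 20 had the same sign in all 3. They were Pals1 and Lenep among those higher and Abcg1 and Dlg4 among those lower in WSP. The 6 arrays of these sets also entered the contrast that picked the genes, so this count is no separate check of them. Above background on all 16 EtOH arrays were 15 of the 20, 6 of the 10 higher and 9 of the 10 lower in WSP.

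The lowest p of a named gene belonged to Dio2, the type II iodothyronine deiodinase, which converts thyroxine to the active hormone triiodothyronine and in brain is made mainly by astrocytes and tanycytes. Its level ran from 7.14 through a median of 7.75 to 8.14 on the 8 WSP arrays, and from 7.93 through 8.08 to 8.74 on the 8 WSR arrays. All 8 WSP arrays lay below the WSR mean, but the ranges overlapped. The means were 7.70 ± 0.38 in WSP and 8.19 ± 0.28 in WSR (SD, n = 8 each), a difference of -0.49 ± 0.14 (SE; 95% interval -0.78 to -0.20), or 1.40-fold lower in WSP. By population the means were 7.82 in WSP-1 and 7.59 in WSP-2, against 8.06 in WSR-1 and 8.33 in WSR-2. The difference was -0.24 ± 0.14 (SE) between WSP-1 and WSR-1 and -0.74 ± 0.14 between WSP-2 and WSR-2, and the lowest values on any EtOH array were the pair of female WSP-2 pools. The size depended on the processing and on the fit. It was -0.99 in the authors' value table, -0.59 under median scaling, -0.49 with the array set as a random block and -0.28 with the set as a fixed block. Within the 3 array sets that joined the lines, WSP minus WSR was 0.08, -0.15 and -0.36.

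Hsd17b1, the 17-beta-hydroxysteroid dehydrogenase that reduces estrone to estradiol, also had a lower mean in WSP. It ran from 7.13 through 7.35 to 7.57 on WSP arrays and from 7.30 through 7.67 to 8.03 on WSR arrays, so the ranges overlapped, with all 8 WSP arrays below the WSR mean. The difference was -0.30 ± 0.10 (SE, n = 8 each), with -0.25 between WSP-1 and WSR-1 and -0.35 between WSP-2 and WSR-2. Within the 3 shared sets it was 0.15, -0.29 and -0.50.

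Epc1 encodes a subunit of a histone acetyltransferase complex. Its level ran from 6.17 through 6.51 to 7.11 on WSP arrays and from 6.68 through 6.92 to 7.09 on WSR arrays. The highest single value of all 16 came from a WSP array, a male WSP-2 pool, and the other 7 WSP arrays lay below the lowest WSR array. The difference was -0.36 ± 0.11 (SE, n = 8 each), with -0.30 in the first pair of populations and -0.42 in the second. Vil1, which encodes the actin-bundling protein villin of epithelial microvilli, had 6.19, 6.58 and 6.92 as lowest, median and highest level in WSP, against 6.46, 6.92 and 7.21 in WSR. Its difference was -0.34 ± 0.11 (SE, n = 8 each), with -0.30 and -0.38 in the pairs. Ccl22, a chemokine that attracts T cells, differed by -0.30 ± 0.10 (SE, n = 8 each), and this was -0.51 ± 0.13 between the females and -0.09 ± 0.14 between the males. With the set as a fixed block the difference of Ccl22 was -0.02. Epc1, Vil1 and Ccl22 overlapped between the lines on these arrays. Within the sets Epc1 differed by 0.37, -0.44 and -0.30, Vil1 by 0.12, -0.12 and -0.20, and Ccl22 by 0.13, -0.18 and -0.09, so each had the opposite sign in the first set.

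The other 5 genes with lower means in WSP were close to one another in size. Dlg4, which encodes PSD-95, the main scaffold of the excitatory postsynaptic density, had 6.04, 6.46 and 6.58 as lowest, median and highest level in WSP, against 6.48, 6.61 and 6.74 in WSR. Its difference was -0.21 ± 0.09 (SE, n = 8 each), it was -0.25 and -0.16 in the pairs, and it was negative in all 3 shared sets (-0.03, -0.13 and -0.62). Abcg1, an exporter of cellular cholesterol, differed by -0.25 ± 0.10, also negative in all 3 sets (-0.12, -0.09 and -0.58). Arid3b, an ARID-domain DNA-binding protein, differed by -0.27 ± 0.11, with -0.49 ± 0.13 in the first pair of populations and -0.05 ± 0.13 in the second, and with 0.05, -0.29 and -0.93 in the sets. Lck, a Src-family kinase of T cells, differed by -0.22 ± 0.09 (in the sets -0.04, 0.05 and -0.23), and the BUB2-like protein 1 clone, above background on 1 WSP and 4 WSR arrays, by -0.20 ± 0.08 (in the sets -0.14, -0.09 and 0.10). Abcg1, Arid3b, Lck and this clone overlapped between the lines, as every probe did.

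Among genes with higher means in WSP, the widest difference was that of Gdi2, a GDP dissociation inhibitor that holds Rab GTPases in their inactive form and recycles them in membrane traffic. It ran from 8.89 through 9.65 to 10.16 on WSP arrays and from 7.84 through 9.33 to 9.85 on WSR arrays. The difference was 0.46 ± 0.18 (SE, n = 8 each; 95% interval 0.09 to 0.83), or 1.38-fold higher in WSP, with 0.69 in the first pair of populations and 0.23 in the second. One array, Male WSR-1 pool 1 at 7.84, lay more than 1 log2 unit below the next WSR array at 8.90, and without it the difference was 0.31. With the array set as a random block it was 0.60, and with the set as a fixed block 1.13. Within the 3 shared sets the values were -0.75, 0.02 and 1.66, the last being the set of that same array.

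Sh3yl1, a phosphoinositide-binding SH3 protein of membrane ruffles, had the lowest p of genes higher in WSP. Its level ran from 9.16 through 9.35 to 9.66 in WSP and from 8.67 through 9.06 to 9.51 in WSR, with all 8 WSP arrays above the WSR mean and overlapping ranges. The difference was 0.26 ± 0.09 (SE, n = 8 each), 0.30 in the first pair of populations and 0.22 in the second, and -0.07, -0.22 and 0.62 within the shared sets. Pals1, a scaffold of the epithelial polarity complex, differed by 0.23 ± 0.09 and was positive in all 3 sets (0.03, 0.19 and 0.02), but it was -0.08 in the authors' own value table. Cd74, the invariant chain that guides MHC class II molecules, differed by 0.23 ± 0.10. It had 10.38, 10.64 and 11.01 as lowest, median and highest level in WSP, against 10.29, 10.44 and 10.67 in WSR, so the ranges overlapped, and within the sets it differed by -0.26, 0.27 and 0.50. Ddit3, the transcription factor CHOP of the endoplasmic reticulum stress response, differed by 0.19 ± 0.09, with 0.19 and 0.20 in the pairs and -0.07, 0.06 and 0.12 in the sets. The clone titled sex comb on midleg-like 1 differed by 0.30 ± 0.12, with 0.48 ± 0.15 between the females, 0.12 ± 0.18 between the males, and 0.24, -0.02 and 0.06 in the sets.

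The remaining 4 genes with higher means in WSP were near the background. Tmod2, a neuronal capping protein of actin filaments, was above background on 5 WSP arrays and 1 WSR array (difference 0.18 ± 0.08), Lenep, a lens epithelial protein, on 3 and 2 (0.18 ± 0.07), and Fbxl6, an F-box protein, on 3 and 1 (0.11 ± 0.05). Tmem165, a Golgi membrane protein, was above background on 3 WSP arrays and on no WSR array. With each WSR array raised to at least its lowest value above background, the WSP mean was 1.02-fold higher. That mean includes the WSP arrays below background, so this is not a firm lower limit. Within the sets Tmod2 differed by -0.08, 0.31 and -0.09, Lenep by 0.09, 0.04 and 0.20, Fbxl6 by 0.08, 0.07 and -0.00159, and Tmem165 by 0.28, -0.01 and 0.01.

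**Figure D2:**
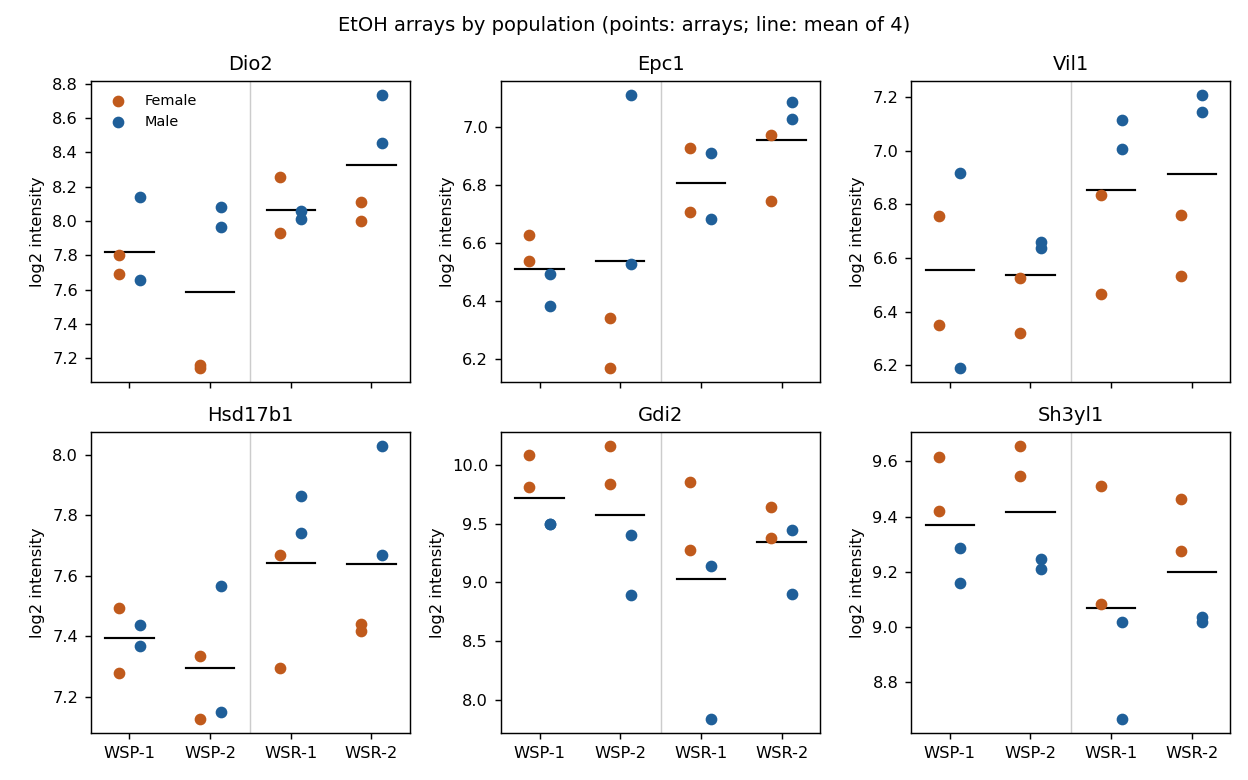
Normalised log2 intensity of 6 genes on each of the 16 EtOH arrays, with WSP-1 and WSP-2 left of WSR-1 and WSR-2. Points are arrays coloured by sex and black lines are means of 4 arrays. In every panel both WSP means lie on one side of both WSR means, while single arrays overlap, as with the male WSP-2 pool that is highest for Epc1 and the male WSR-1 pool at 7.84 for Gdi2.

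The lowest p of any probe belonged to an EST that ran from 6.41 through 6.67 to 7.04 on WSP arrays and from 6.95 through 7.17 to 7.47 on WSR arrays. It differed by -0.46 ± 0.11 (SE, n = 8 each), with -0.48 in the first pair of populations and -0.44 in the second, and was negative within all 3 shared sets (-0.21, -0.35 and -0.77). It was chosen after its values were seen.

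Whether line differences repeated in the independent pairs was asked over all probes. WSP-1 minus WSR-1 and WSP-2 minus WSR-2 had the same direction on 2564 of 4696 probes (54.6%), and their correlation across probes was 0.16. On the 1359 probes above background on all 16 EtOH arrays the share was 59.0% and the correlation 0.24. The pairs share no array, but probes on one array are not independent of one another, so no test is given. The 157 probes with a p under 0.05 in the pooled contrast all had the same direction in both pairs, which that contrast favours.

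**Figure D3:**
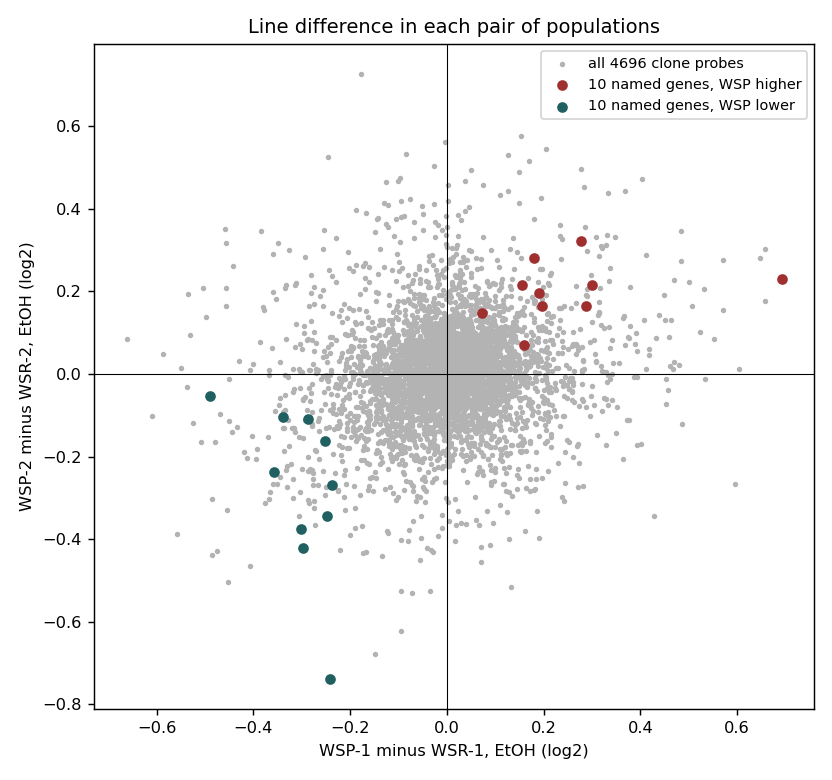
WSP minus WSR within the first pair of populations (horizontal axis, log2) against the second pair (vertical axis, log2) for 4696 clone probes in grey, with the 20 named genes in colour. The cloud is nearly round (correlation 0.16), and the coloured points lie in the quadrants where both pairs share a direction, which their choice favours.

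Within each pair no probe was called, and neither was the difference between pairs. For WSP-1 minus WSR-1, limma called 0 of 4696 probes (0%), with 184 at a p under 0.05 (3.92%) and a smallest adjusted p of 0.999. For WSP-2 minus WSR-2 it called 0 (0%), with 123 at a p under 0.05 (2.62%) and a smallest adjusted p of 0.273. That p belonged to Ifi47, an interferon-induced GTPase, which differed by 0.47 ± 0.08 in the second pair and by 0.04 in the first, and which was above background on 4 of 8 WSP and 2 of 8 WSR arrays. The female WSP-2 pools were at 6.75 and 6.68 and the male WSP-2 pools at 5.66 and 5.85, against 5.73 to 5.80 on the 4 WSR-2 arrays. Over both populations its line difference was 0.47 ± 0.22 between the females and 0.03 ± 0.05 between the males. For Dio2 in the second pair the adjusted p was 0.383. Glul, the glutamine synthetase of astrocytes that clears glutamate, differed by 0.50 ± 0.15 in the second pair and by -0.03 in the first. Endog, a mitochondrial nuclease, differed by -0.66 ± 0.20 in the first pair and by 0.08 in the second, and the clone titled oncoprotein induced transcript 5 by 0.59 ± 0.13 and -0.27. Tested directly, the difference between pairs was called on 0 of 4696 probes (0%), with 110 at a p under 0.05 (2.34%) and a smallest adjusted p of 0.998 by limma. Leaving out 1 array changed these counts: WSP-2 minus WSR-2 then gave 19 calls without Female WSP-2 pool 1, 27 without Female WSP-2 pool 2 and 6 without Male WSR-2 pool 2, and WSP-1 minus WSR-1 gave 5 without Female WSP-1 pool 1 and 6 without Male WSP-1 pool 2. In those fits 1 cell of sex and population rests on a single array that is assumed to vary like the others.

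Line differences were then taken within each sex, with 4 arrays per line. Female and male differences had the same sign on 42.4% of probes, with a correlation across probes of -0.27. The line by sex interaction had 422 probes at a p under 0.05 (8.99%), while limma called 0 (0%, smallest adjusted p = 0.164). Among named genes the smallest p was that of Arl6, a small GTPase of primary cilia (adjusted p = 0.164 by limma), at 0.75 ± 0.15 (WSP minus WSR) in females and -0.50 ± 0.19 in males. Psmb8, an immunoproteasome subunit, was -0.29 ± 0.12 in females and 0.31 ± 0.12 in males, and Rgs2, which limits signalling of G proteins, was -0.34 ± 0.13 and 0.33 ± 0.14. For Arl6 the female EtOH arrays ran from 7.08 to 7.57 in WSP and from 6.42 to 6.78 in WSR. The male EtOH arrays ran from 6.19 to 7.05 in WSP and from 6.87 to 7.16 in WSR. In air its line difference over both sexes was 0.56 ± 0.18 (SE). The female air arrays ran from 7.20 to 8.15 in WSP and from 6.11 to 7.22 in WSR. The male air arrays ran from 7.03 to 7.30 in WSP and from 6.64 to 7.08 in WSR. No array set held female EtOH arrays of both lines, so no within-set line difference can be had among the females, and the pairs of a male WSP-2 with a female WSR-2 pool enter the female and the male difference with opposite signs. In fits added after seeing the data, the interaction was called by limma on 2 probes with the array set as a random block, Arl6 (-1.43 ± 0.25, males minus females) and an EST (-1.56 ± 0.26, adjusted p = 0.0453 for each). Without the 6 arrays of the 3 shared sets it was called on 45 probes, these 2 among them, the same sign was found on 39.8% of probes and the correlation was -0.40, but the males then had 1 WSP array, which is assumed to vary like the others. Within one sex limma called 0 probes, with 329 at a p under 0.05 among females and 199 among males.

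Line differences seen during withdrawal were then set beside those of air-exposed mice, which come from the same 4 populations but from separate arrays. Across all probes the direction of WSP minus WSR was the same in EtOH and in air on 2606 of 4696 (55.5%), with a correlation of 0.23. Of the 157 probes with an EtOH p under 0.05, 124 had the same direction in air (79.0%), and 42 of them also had an air p under 0.05, against 218 of all 4696 probes with the same direction and an air p under 0.05. Of the 84 probes lower in WSP, 69 had the same direction in air and 38 of these an air p under 0.05. Of the 73 probes higher in WSP, 55 had the same direction and 4 an air p under 0.05. Air and EtOH arrays share some array sets, and with the 9 air arrays of those sets left out, leaving 5 WSP and 2 WSR arrays, 108 of the 157 (68.8%) had the same direction, against 52.4% of all probes.

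Among the named genes, the 5 with the widest lower values in WSP had nearly the same values in air with the sexes pooled. No named gene had a called difference between the conditions. Dio2 averaged 7.68 ± 0.43 in WSP and 8.13 ± 0.15 in WSR on air arrays (SD, n = 8 each), a difference of -0.45 ± 0.13 (SE), against -0.49 during withdrawal. Epc1 differed by -0.39 ± 0.09 in air, Vil1 by -0.32 ± 0.09, Hsd17b1 by -0.28 ± 0.08 and Ccl22 by -0.26 ± 0.09. For Dio2 the agreement did not hold within each sex. During withdrawal it differed by -0.63 ± 0.18 in females and -0.35 ± 0.20 in males. In air its female arrays ran from 7.13 to 7.55 in WSP and from 8.04 to 8.37 in WSR. Its male air arrays overlapped, at 7.88 to 8.28 and 7.87 to 8.27. Vil1 and Hsd17b1 differed less in females (-0.16 and -0.15) than in males (-0.52 and -0.45) during withdrawal. In air the lines were apart in their female arrays and overlapped in the males. In all, 9 of the 10 genes lower in WSP had the same direction in air, 5 of them with an air p under 0.05, and the median air difference was -0.21. The 10 genes higher in WSP had a median air difference of 0.02, and the direction held in 7, with an air p under 0.05 in 1, sex comb on midleg-like 1 (0.35 ± 0.11). These counts include dim probes. Tmod2, Lenep, Fbxl6 and Tmem165 passed the level filter only through their WSP means, and BUB2-like protein 1 only through its WSR mean. Among genes above background on all 16 EtOH arrays, the direction held in 5 of 6 higher ones (median 0.05). It held in 9 of 9 lower ones (median -0.26). Gdi2 differed by 0.03 ± 0.13 in air and Sh3yl1 by -0.10 ± 0.12.

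**Figure D4:**
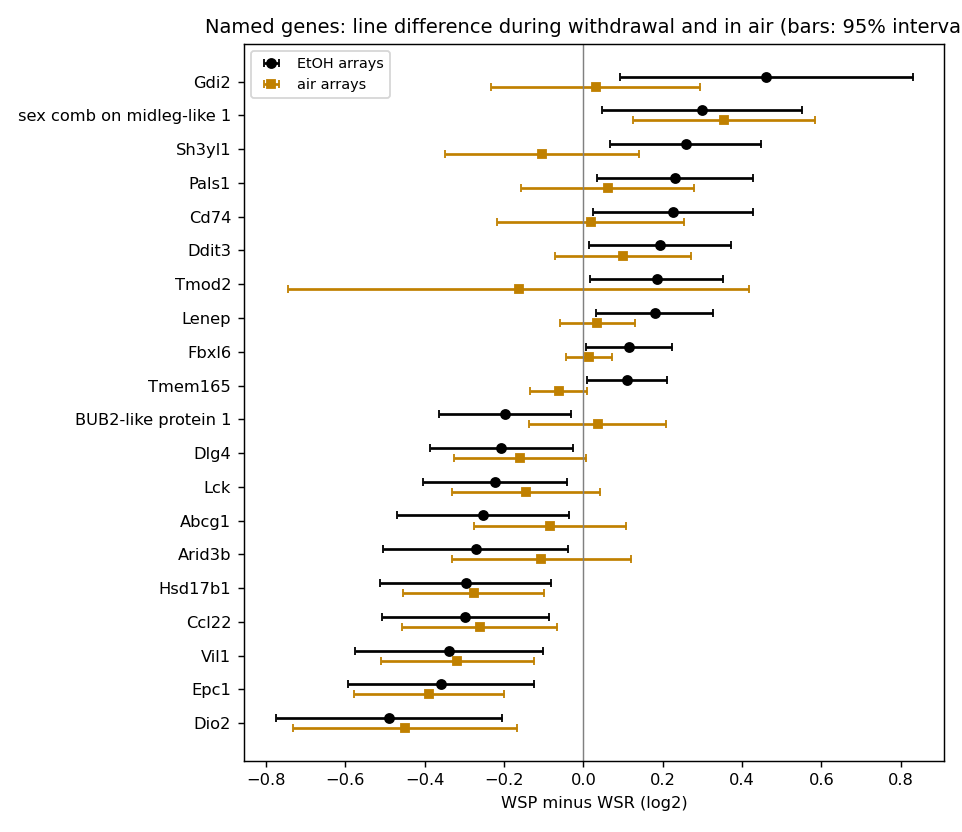
WSP minus WSR (log2) for the 20 named genes on the EtOH arrays (black circles) and on the air arrays (orange squares), with 95% intervals of each. With the sexes pooled, the 5 genes with the largest lower values in WSP, Dio2 (-0.49 and -0.45) to Hsd17b1, sit at nearly the same place in air. Gdi2 and Sh3yl1 lie near 0 or below it in air.

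The air comparison itself gave 3 calls out of 4696 (0.0639%), with 270 probes at a p under 0.05 (5.75%), of which 66 were higher and 204 lower in WSP. All 3 called probes are ESTs lower in WSP, by -0.40 ± 0.07, -0.41 ± 0.07 and -0.42 ± 0.08 (limma adjusted p = 0.0479 for each). During withdrawal the same 3 differed by -0.39, -0.21 and -0.29, the first and the last with an unadjusted p under 0.05 there. The calls depended on the processing, with 0 under median scaling, under cyclic loess and without background correction, and 77 of 1921 probes in the authors' value table, 4 higher and 73 lower in WSP. That table also tests fewer probes and leaves values below background blank. Of those 77, 17 were titled with a named gene. During withdrawal, with the values normalised here and not the authors' values, 71 had the same direction. Over all probes, with both conditions normalised here, the share was 55.5%. This count uses all air arrays, 9 of which share an array set with EtOH arrays. Endog (-0.53 ± 0.11) and Crlf3, a cytokine receptor-like protein (-0.40 ± 0.09), had the lowest p among named genes in air but no call with this processing. Over the alternatives their lowest adjusted p in air by limma was 0.0161 and 0.0137, and that of Epc1 was 0.0446, so each was called under some processing. During withdrawal Endog and Crlf3 differed by -0.29 ± 0.17 and -0.31 ± 0.13.

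Whether ethanol changed the line difference was tested as an interaction over all 32 arrays. It was called on 0 of 4696 probes (0%), with 98 at a p under 0.05 (2.09%) and a smallest adjusted p of 0.999 by limma. The lowest p among genes with a more positive difference during withdrawal belonged to Tmem165, for which no fold is given because no WSR EtOH array measured it above background, Gjb5, a gap junction connexin (0.27 ± 0.10), and Sh3yl1 (0.36 ± 0.14). Among those with a more negative one they were Mtx1, a mitochondrial import protein (-0.21 ± 0.09), Rcan1, an inhibitor of calcineurin (-0.26 ± 0.11), and Nectin3, an adhesion molecule (-0.52 ± 0.22). Of these Gjb5 was above background on 5 WSP and 4 WSR, Mtx1 on 1 and 4, and Nectin3 on 5 and 6 of the 8 EtOH arrays of each line. For Rcan1 the line difference was 0.00 ± 0.08 during withdrawal and 0.26 ± 0.09 in air. For Dio2 the interaction was -0.04 ± 0.16.

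Gene lists for withdrawal biology held 221 measured genes, and limma called none of them in the line comparison. An unadjusted p under 0.05 was met by 12 (5.43%), against 3.34% of all probes, and the direction was the same in both pairs of populations for 127 of 221, against 54.6% of all probes. Most probes are dim, while each list gene is represented by its brightest probe. Of the 1359 probes above background on all 16 EtOH arrays, 102 had an unadjusted p under 0.05 and 59.0% had the same direction in both pairs. The list shares are therefore not read as an excess. Over all probes 51.0% were higher in WSP and the median difference was 0.00 log2.

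Inhibitory and excitatory signalling genes were few on these arrays. In the GABA and glycine list 2 of 3 measured members were higher and 1 lower in WSP, 0 called, with a median of 0.01. The lower one was Gabbr1, a subunit of the metabotropic GABA-B receptor, which ran from 7.13 through 7.61 to 7.83 in WSP and from 7.55 through 7.82 to 7.92 in WSR. It differed by -0.26 ± 0.11 (SE, n = 8 each), with -0.28 and -0.24 in the pairs of populations and -0.27 ± 0.16 in air, and the lines overlapped. Slc32a1, the vesicular GABA transporter, differed by 0.04 ± 0.04 near the background, above it on 3 WSP and 2 WSR arrays. Of 4 glutamate genes 2 were higher and 2 lower, 0 called (median 0.03), among them Dlg4 above and Homer1, a postsynaptic scaffold induced by activity, at 0.10 ± 0.05 near the background. Of 5 synaptic vesicle and SNARE genes 2 were higher and 3 lower, 0 called (median -0.02, against 0.00 under median scaling and 0.01 under cyclic loess). Syt4, a synaptotagmin of vesicle release, ran from 6.42 through 7.23 to 7.41 in WSP and from 7.35 through 7.42 to 7.57 in WSR, with a difference of -0.28 ± 0.12 (SE, n = 8 each). Of 9 ion channel and calcium genes 3 were higher and 6 lower, 0 called (median -0.04, against -0.02 under median scaling, -0.01 under cyclic loess with 4 higher and 5 lower, and -0.11 without background correction), with Cacna2d1, an auxiliary calcium channel subunit, at -0.10 ± 0.06.

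Activity and stress genes were also without a call by limma. Of 11 immediate early genes 3 were higher and 8 lower in WSP, with a median of -0.04, which was -0.07 under median scaling, -0.06 under cyclic loess and -0.10 without background correction, and 8 of the 11 had the same direction in both pairs. Ier2 differed by -0.30 ± 0.14 (SE, n = 8 each), with levels from 6.61 through 7.15 to 7.65 in WSP and from 7.05 through 7.36 to 7.76 in WSR. Of 7 heat shock and chaperonin genes 2 were higher and 5 lower, with a median of -0.11, which was -0.15 under median scaling, -0.11 under cyclic loess and -0.19 without background correction, and 5 of the 7 had the same direction in both pairs. Dnajb1, an Hsp40 co-chaperone, differed by -0.23 ± 0.10 and by -0.19 ± 0.09 in air. Hspa4, of the Hsp110 family, differed by -0.24 ± 0.11, with -0.08 in the first pair and -0.41 in the second. Of 4 endoplasmic reticulum stress genes 2 were higher and 2 lower (median 0.02, against -0.03 under median scaling and -0.01 under cyclic loess), with Ddit3 above and Eif2ak3, the kinase PERK, at 0.07 ± 0.05. The list of steroid receptors and neurosteroid synthesis, which also holds Dio2, had 1 member higher and 4 lower of 5, 0 called, with a median of -0.10. Under median scaling, cyclic loess and no background correction all 5 were lower, with medians of -0.16, -0.16 and -0.24. Its widest differences were those of Dio2 and Hsd17b1, while Esr1, the estrogen receptor alpha, differed by -0.07 ± 0.07 near the background.

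Broad housekeeping lists held no call by limma. Of 19 cell cycle genes 9 were higher and 10 lower (median -0.01), of 15 histone and chromatin genes 7 and 8 (median -0.00393), of 10 ribosomal and translation genes 5 and 5 (median 0.05, against -0.00237 under median scaling), and of 6 respiratory chain genes 3 and 3 (median 0.02), with 0 called in each. Of 12 cytoskeleton and axon growth genes 4 were higher and 8 lower (median -0.02), of 9 proteasome and ubiquitin genes 3 and 6 (median -0.02), and of 7 cholesterol and lipid metabolism genes 1 and 6 (median -0.04), with 0 called in each.

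Markers of the cell types a prefrontal dissection can hold did not separate the lines by a call. The mean log2 level of 4 astrocyte markers spanned 6.62 to 6.95 on WSP and 6.50 to 7.03 on WSR arrays, that of 3 oligodendrocyte markers 7.10 to 7.43 and 7.07 to 7.38, and that of 3 neuron markers 6.05 to 6.30 and 6.04 to 6.41. Blood markers (3 genes) spanned 7.39 to 7.78 and 7.44 to 7.79, and choroid plexus markers (4 genes) 7.66 to 8.07 and 7.67 to 7.94. Microglia and macrophage markers (4 genes) spanned 5.82 to 6.05 and 5.75 to 6.07, and vascular markers (3 genes) 5.93 to 6.83 and 6.03 to 6.36. The ranges of the lines overlapped in each of these lists, and their part in the gene differences was not tested. Several markers were dim, so these means say little about cell composition. Among astrocyte markers Glul was above background on 8 WSP and 8 WSR arrays, but Clu on 2 and 2 and Fgfr3 on 3 and 3. Enpp2 (9.83 in WSP, 9.67 in WSR) counts in both the oligodendrocyte and the choroid plexus lists. Syn1, which encodes the neuronal vesicle protein synapsin, was above background on 8 WSP and 7 WSR arrays. Ttr, the defining choroid plexus gene, was at 9.88 in WSP and 9.95 in WSR. In whole tissue, fewer cells of a type and less RNA per cell cannot be told apart.

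**Figure D5:**
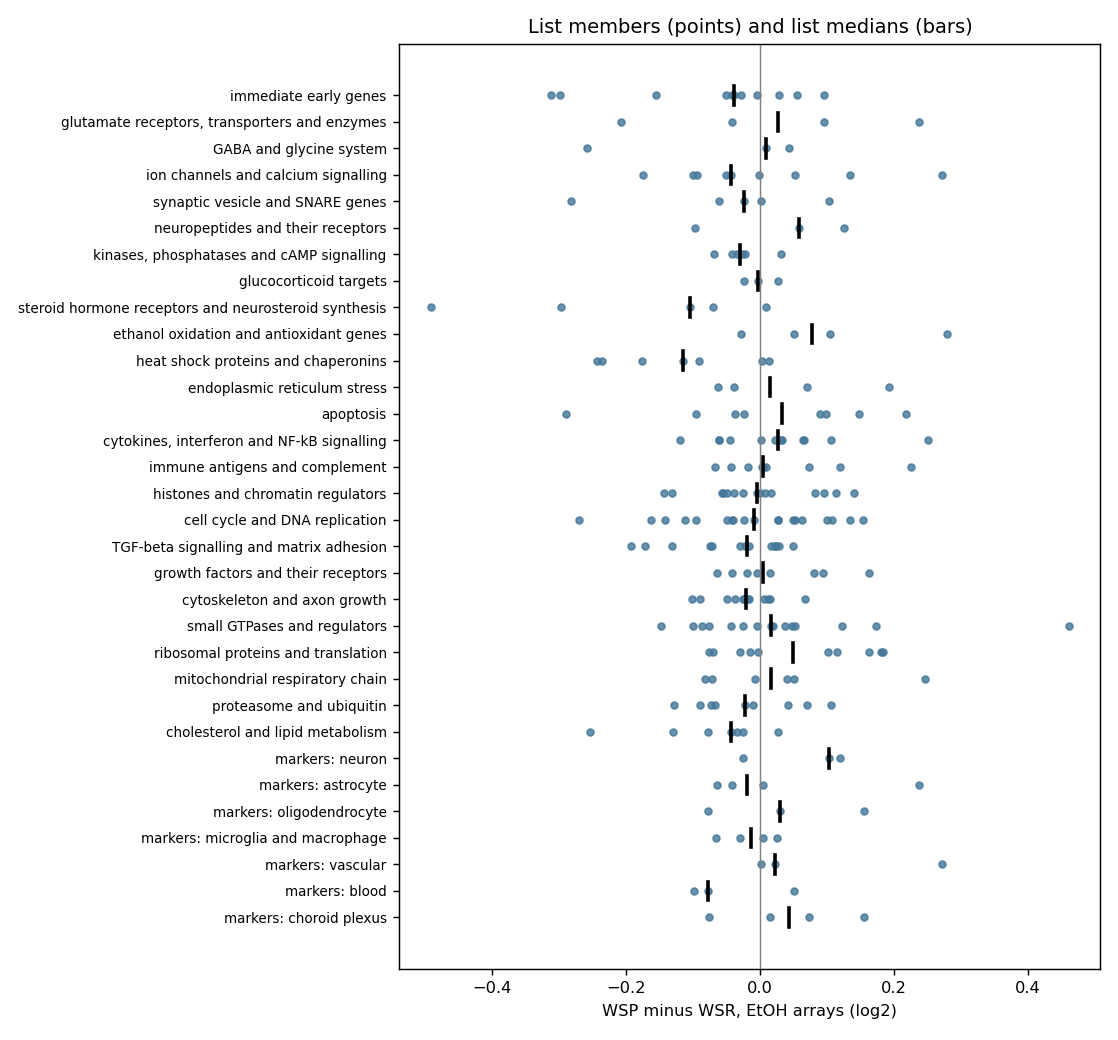
WSP minus WSR on the EtOH arrays (log2, horizontal axis) for the measured members of each list with at least 3 members, as points, with list medians as black bars. Medians lie between -0.11 (heat shock proteins and chaperonins) and 0.10 (neuron markers), and the single members farthest out are Dio2 (-0.49) and Gdi2 (0.46).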

How the data were processed

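Pooled prefrontal cortex RNA was hybridised to spotted cDNA arrays with 1 label. Per the file headers, the deposited files give an intensity for every spot beside a single background intensity per array, and the authors subtracted nothing from it. The authors' deposited value table holds log2 values in the rank order of these intensities, blank below background, with column medians of 7.37 to 8.63 and 11.3% to 48.9% of clones blank on the EtOH arrays. Its scale and direction follow from the intensities, while its centring is unknown. The imaging software is not stated in the labels.

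Intensities were corrected by normexp (offset 50) over 5355 spots. The 4696 clone spots were quantile normalised over 32 arrays and log2 transformed, and 192 genomic DNA spots and 467 spots without clone identity were dropped. A probe counted as above background where its intensity exceeded that of the array's background. limma 3.58.1 in R 4.3.3 was fitted with sex as a block and a trended prior (13 residual and 6.11 prior degrees of freedom for the line comparison), two-sided, and p-values were adjusted over all probes by the Benjamini-Hochberg method (threshold 0.05). The line by treatment fit used all 32 arrays. The line fit was tested on simulated data with independent normal errors on each array and without array sets or populations. That test cannot show how the fit behaves on arrays that share a set. Array sets came from average linkage (height 0.75) on spot-centred control values. For a probe that no array of a line measured above background, the dim line's level was raised before the fold was taken. On each array it was raised to at least the array's lowest value above background. The number of arrays limits the precision. jsonlite 2.0.0 read the labels, and figures used matplotlib 3.10.9 under Python 3.11.15.

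Named genes carry 1 gene title and have a mean above 5.87, the 25th percentile of probe means, in the higher line. The rule took up to 15 called genes per direction, filled to 10 by smallest p, 3 per direction in each other test and 2 per list. Titles were matched by hand to RefSeq symbols. The genes, lists and settings were chosen with earlier results of these data known, and the spot centring after seeing the data. Alternatives were other scalings, background corrections, filters, the authors' table, blocks by replicate, population and set, each sex alone, and each array left out.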

Additional observations from a re-analysis of the deposited data

Results flagged for a closer look

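In 3 of 42 groups of 8 arrays (21 probes of the line comparison, each in WSP and in WSR), 1 array lay farther from the rest than Dixon's 95% critical value allows for its share of the range; chance gives about 1 in 20. For Gdi2, Male WSR-1 EtOH pool 1 was at 7.84 and the next WSR array at 8.90, and without it WSP minus WSR was 0.31 in place of 0.46. For Ddit3, Female WSP-2 EtOH pool 2 was at 9.93 and the next WSP array at 9.62, and without it the difference was 0.15 in place of 0.19. For Dlg4, Male WSP-1 EtOH pool 2 was at 6.04 and the next WSP array at 6.35, and without it the difference was -0.15 in place of -0.21. The first and the last of these arrays are the pair in one array set.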

How the results depend on the processing

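Under all 31 alternatives, WSP minus WSR in EtOH gave 0 calls, with a smallest adjusted p of 0.118 (authors' table, 1846 probes). The number of its probes with a p under 0.05, 157, became 104 under median scaling, 236 in the authors' table, 252 with the array set as a random block, 362 with the set as a fixed block (added after seeing the data), and 329 in females alone, and 121 to 193 with 1 array left out. Calls in air, 3, became 0 under median scaling, cyclic loess, no background correction and with only air arrays outside the sets of EtOH arrays (added later), 1 with the replicate block and 77 in the authors' table. With 1 array left out, calls ran from 0 to 6 in WSP-1 minus WSR-1, 0 to 27 in WSP-2 minus WSR-2 and 0 to 5 in their difference. Of 641 recomputed differences of named probes in the line comparison 636 kept their direction and stayed uncalled, and 5 reversed. With the set as a fixed block sex comb on midleg-like 1 was -0.0529, Tmod2 -0.0235, Fbxl6 -0.00483 and BUB2-like protein 1 0.0816. That fit takes the line difference only from the 6 arrays of the 3 sets that joined the lines, fewer than the fits of all 16 arrays use. In the first and second of those sets line and sex also change together. Pals1 was -0.0771 in the authors' table. The cause of the reversals was not tested. Sizes moved as well: Dio2 ran from -0.99 (authors' table) to -0.28 (set as a fixed block), Gdi2 from 0.31 (without Male WSR-1 pool 1) to 1.13 (fixed block), Ccl22 from -0.61 (authors' table) to -0.02 (fixed block) and Abcg1 from -0.71 (authors' table) to -0.10 (females alone). Line by sex had 0 calls under 6 alternatives and, in fits added later, 2 with the set as a random block and 45 without the 6 arrays of the shared sets. Pairing by selection replicate number was not taken as real, since deviations of same-numbered populations correlated at 0.02 in females and 0.30 in males, and the replicate block gave 0 calls in the line comparison and 166 probes with a p under 0.05. Dim probes near the floor limit the size of any difference, and 2 populations per line limit what can be said of the lines.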
